A study of Homo sapiens with 4 samples.

Results

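The regions described are CUT&Tag summits at paired gene ends in 22RV1 cells. A summit, the highest position of a called interval, was a member when it lay within 1000 bp of a start or end of at least 2 different protein-coding genes of RefSeq on GRCh38. Only chromosomes 1 to 22 and X were used, more than 2 Mb from the chromosome ends. The inhibitor control held 498 such summits of 10061 listed intervals, the inhibitor library 238 of 3304, the knockdown control 482 of 10759 and the RB knockdown library 203 of 2632. Summits near the ends of 1 gene only, the comparison used throughout, numbered 2214, 1005, 2329 and 853 in the same order. Most summits of both kinds were weak calls. Of the members only 11, 0, 4 and 0 reached a deposited −log10 q of at least 2, against 41, 4, 13 and 2 near 1 gene. The median deposited fold enrichment of members was 1.24, 1.10, 1.16 and 1.06, against 1.15, 1.07, 1.11 and 1.05 near 1 gene.

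22RV1 is a human prostate cancer cell line. The 4 libraries came from cells given PD0332991 (palbociclib), an inhibitor of the kinases CDK4 and CDK6, from the control of that inhibitor, from cells with RB knocked down by siRNA, and from the control of that knockdown. Cells of all groups were grown in the same serum-containing medium and fixed with formaldehyde, and the chromatin was sonicated. The antibody target, the doses, the times and what the controls received are not stated in any source at hand, and RB protein or RNA was not measured in these files. Each group held 1 library, so no difference between groups has a replicate check, and the intervals given cover counting error only.

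CDK4 and CDK6 phosphorylate RB, the retinoblastoma protein, which in its unphosphorylated form holds back E2F transcription factors at genes of DNA replication. CUT&Tag is a method in which an antibody directs a transposase to a chromatin protein or mark, so that fragments pile up where the target sits. The sonication in the protocol is not a step of that method as usually done, so the assay behind these lists is uncertain. Many human genes lie head to head, with their starts close together on opposite strands, and the DNA between them, often rich in CpG, works as a promoter in both directions. Genes of DNA repair, replication, mitochondria and histones are well represented among such pairs, and binding sites of the ETS family factor GABP and CCAAT boxes, bound by NF-Y, are common in the shared promoters.

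The promoters of 6 genes at paired ends show the sequence that lies under these summits. They were chosen after the values were seen: TOM1L2 for a summit in all 4 libraries, CERT1, TPCN1, PSENEN and H2AC11 for a ratio of the inhibitor library to its control that differed beyond counting error from the median ratio of all matched summits, and ATM as a long-studied pair with NPAT. Each runs from 250 bases before to 50 bases after an annotated start, 5′ to 3′ on the strand of the gene, from RefSeq on GRCh38.p14. For CERT1 that start is not the outermost one, which the distances to gene ends use. Capitals mark CCAAT boxes (CCAAT or its complement ATTGG), ETS cores (CGGAAG or CTTCCG), the E2F motif TTTCGCGC and the YY1 motif AAGATGGC. A match is a stretch of letters, not evidence of binding.
TOM1L2, chr17:17972351-17972650, minus strand: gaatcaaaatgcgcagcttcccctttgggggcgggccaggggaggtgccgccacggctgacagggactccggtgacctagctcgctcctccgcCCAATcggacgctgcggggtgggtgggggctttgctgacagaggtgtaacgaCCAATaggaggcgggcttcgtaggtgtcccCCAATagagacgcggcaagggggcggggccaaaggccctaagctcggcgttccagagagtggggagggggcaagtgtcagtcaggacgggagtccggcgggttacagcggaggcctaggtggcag
CERT1, chr5:75511580-75511879, minus strand: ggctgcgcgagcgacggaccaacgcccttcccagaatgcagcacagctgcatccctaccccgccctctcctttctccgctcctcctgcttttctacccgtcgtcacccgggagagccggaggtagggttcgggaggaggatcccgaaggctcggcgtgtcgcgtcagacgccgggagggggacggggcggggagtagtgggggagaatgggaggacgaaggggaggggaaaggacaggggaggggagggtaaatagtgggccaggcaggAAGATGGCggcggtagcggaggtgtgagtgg
TPCN1, chr12:113221214-113221513, plus strand: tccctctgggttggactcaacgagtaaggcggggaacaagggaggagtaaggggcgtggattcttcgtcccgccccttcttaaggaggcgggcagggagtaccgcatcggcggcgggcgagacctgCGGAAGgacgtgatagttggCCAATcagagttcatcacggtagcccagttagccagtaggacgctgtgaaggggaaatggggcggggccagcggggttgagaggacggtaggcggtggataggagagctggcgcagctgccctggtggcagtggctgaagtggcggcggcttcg
PSENEN, chr19:35745401-35745700, plus strand: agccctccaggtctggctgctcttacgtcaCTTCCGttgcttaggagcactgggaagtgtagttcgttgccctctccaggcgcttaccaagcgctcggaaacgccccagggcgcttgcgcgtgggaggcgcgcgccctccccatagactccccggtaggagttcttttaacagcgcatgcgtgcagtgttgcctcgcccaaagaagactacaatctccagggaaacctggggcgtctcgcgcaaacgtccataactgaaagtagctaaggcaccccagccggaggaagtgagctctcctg
H2AC11, chr6:27132793-27133092, plus strand: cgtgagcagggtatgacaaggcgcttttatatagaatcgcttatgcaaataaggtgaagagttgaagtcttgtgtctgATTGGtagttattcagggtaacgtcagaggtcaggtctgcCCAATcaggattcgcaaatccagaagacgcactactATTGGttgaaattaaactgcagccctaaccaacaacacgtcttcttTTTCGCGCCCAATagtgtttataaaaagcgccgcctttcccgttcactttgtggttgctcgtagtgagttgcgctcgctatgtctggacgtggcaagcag
ATM, chr11:108222817-108223116, plus strand: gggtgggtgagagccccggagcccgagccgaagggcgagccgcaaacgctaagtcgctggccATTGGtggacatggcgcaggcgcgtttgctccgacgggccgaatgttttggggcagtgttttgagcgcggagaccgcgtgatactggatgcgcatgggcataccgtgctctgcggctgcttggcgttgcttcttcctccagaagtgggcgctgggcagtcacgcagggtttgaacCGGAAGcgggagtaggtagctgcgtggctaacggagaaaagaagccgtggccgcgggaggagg

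The TOM1L2 promoter, shared with DRC3, a gene of cilia, holds 3 CCAAT boxes, the first at base 94. The starts of TOM1L2 and DRC3 lie 413 bp apart, and the summits lay between them at base 38, 40 and 119 of the printed stretch in the inhibitor control, the inhibitor library and the knockdown control. In the RB knockdown library the summit fell just outside the stretch, at position -7. The histone promoter of H2AC11, 248 bp from the start of H2BC11, holds 4 CCAAT boxes and 1 E2F motif at base 201 that runs into a CCAAT box. Its summits lay at base 13, 113, 101 and 12 in the order inhibitor control, inhibitor, knockdown control and RB knockdown, which is the order of all lists of 4 values below. In the ATM promoter, 429 bp from the start of NPAT, the summits of the 3 libraries that listed one lay at base 8, 8 and 1, towards NPAT, with none under the inhibitor.

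Gene-end summits lay at paired ends more often than the length of those windows would give. Of the summits within 1000 bp of any protein-coding gene end, 18.4% (95% exact binomial interval 16.9 to 19.9), 19.1% (16.99 to 21.4), 17.1% (15.8 to 18.6) and 19.2% (16.9 to 21.7) lay at paired ends. Windows that belong to at least 2 genes made up 8.03% of all gene-end windows by length, 5.42 Mb against 62.1 Mb for windows of 1 gene. Per Mb of window the lists held 91.9, 43.9, 88.9 and 37.4 summits at paired ends, against 35.7, 16.2, 37.5 and 13.7 at windows of 1 gene. The 4 shares are close, although the treated lists are much shorter than the control lists. The background behind each list, recovered from the deposited values, held 34562, 9592, 36250 and 7641 fragments. Its part in the shorter treated lists, and in the counts and densities per library, was not tested. When only pairs whose gene bodies do not overlap were counted, 368, 163, 364 and 148 members remained.

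Most members lay where genes start on opposite strands. Strand was known for both genes at 380, 168, 350 and 147 members with 2 genes, and 311 (81.8%), 144 (85.7%), 286 (81.7%) and 129 (87.8%) of these had starts on opposite strands. That class made up 43.6% of the paired window length for which strand was known. A start next to an end of another gene accounted for 47, 16, 45 and 12 members, and starts on one strand for 18, 7, 17 and 6. Pairs of ends, 30.7% of the paired length, held only 4, 1, 2 and 0 members.

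Summits were densest where starts lay on opposite strands. Windows with starts on opposite strands held 187 summits per Mb in the inhibitor control (167 to 209), 86.8 under the inhibitor (73.2 to 102), 172 in the knockdown control (153 to 193) and 77.7 with RB knocked down (64.9 to 92.3). Windows with the start of 1 gene held 73.2 (69.9 to 76.8), 34.0 (31.7 to 36.4), 76.2 (72.8 to 79.8) and 28.7 (26.6 to 30.9). Windows with starts of different genes on one strand held 103 (61.3 to 164), 40.2 (16.2 to 82.9), 97.7 (56.9 to 156) and 34.5 (12.7 to 75.1), and these intervals overlapped those of 1 start in every library. Windows with a start and an end of another gene held 58.2, 19.8, 55.8 and 14.9, below those with a lone start in all 4 libraries, although the intervals overlapped in every library except the RB knockdown. Windows with 1 end held 2.65, 0.832, 2.81 and 0.554, and windows with a pair of ends 3.42, 0.856, 1.71 and 0. The 0 allows a density of up to 3.16 per Mb with RB knocked down.

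**Figure D1:**
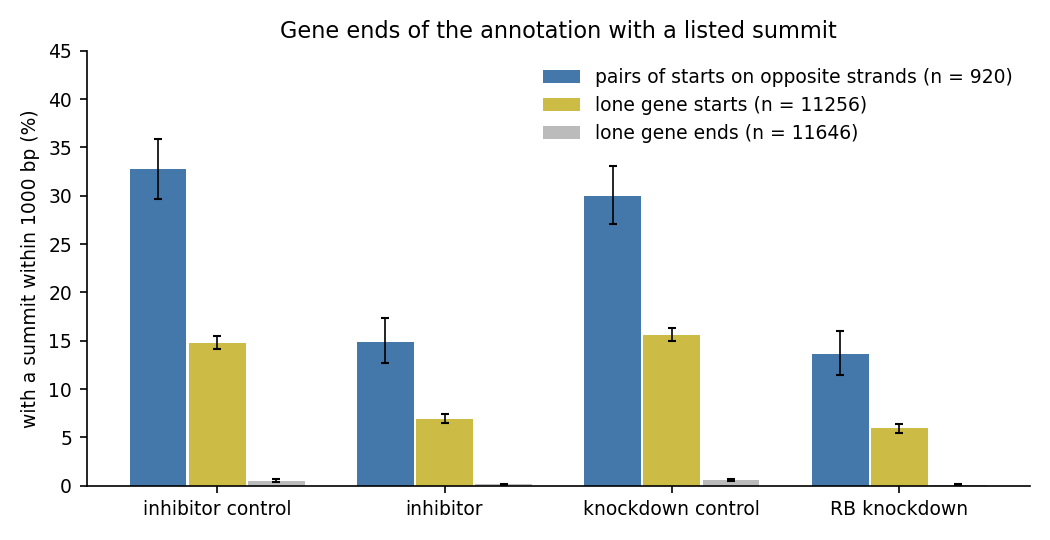
Share of annotated sites (y axis, %) with a listed summit within 1000 bp (of both starts for pairs) in each of the 4 libraries, for pairs of starts on opposite strands, lone starts and lone ends. Error bars are 95% exact binomial intervals. In every library the pairs held a summit more often than lone starts did, while lone ends stayed under 1%.

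Counting from the annotation gave the same picture. The annotation held 920 pairs of starts on opposite strands at most 1000 bp apart with no end of any other gene within 2000 bp, and 11256 lone starts. A summit within 1000 bp of both starts was listed at 32.7% of the pairs in the inhibitor control (29.7 to 35.9), 14.9% under the inhibitor (12.7 to 17.4), 30% in the knockdown control (27.1 to 33.1) and 13.6% with RB knocked down (11.4 to 15.97). At lone starts the shares were 14.8%, 6.95%, 15.6% and 5.93%. If each start of a pair held a summit as often as a lone start and independently of its partner, 27.4%, 13.4%, 28.8% and 11.5% of pairs would hold one. That expected value allows a summit within 1000 bp of either start, whereas the measured share required one within 1000 bp of both. The measured window was therefore narrower, with a median of 1792.5 bp per pair against 2001 bp at every lone start. The measured share exceeded the expected value beyond its counting interval in the inhibitor control and not in the other libraries. With such unlike windows, the lack of an excess in those other libraries decides nothing about independence. At 11646 lone ends the shares were 0.507%, 0.137%, 0.584% and 0.0945%.

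Pairs with starts over 250 and up to 500 bp apart held a summit more often than closer pairs in each library, beyond the counting intervals only in the inhibitor control (33.9 to 46.7 against 25.9 to 33.7). Their share was 40.2%, 18.8%, 34.7% and 15.9% of 239 pairs. At 546 pairs with starts at most 250 bp apart it was 29.7%, 12.8%, 27.8% and 11.9%, and at 135 pairs farther apart, up to 1000 bp, 31.9%, 16.3%, 30.4% and 16.3%. The median level was lowest for the closest starts in all 4 libraries, with 5.08, 6.28, 3.59 and 5.78 FPM. It was 8.54, 9.95, 5.46 and 7.84 FPM at over 250 and up to 500 bp, and 7.73, 10.2, 6.90 and 9.28 FPM farther apart. Only in the inhibitor control did the intervals of the 2 closer classes not overlap (4.47 to 6.51 against 7.32 to 10.2). Those of the closest and the farthest class overlapped in all 4 libraries. FPM are treatment fragments at the summit per 1000000 treatment fragments of the library, recovered from the deposited fold and p.

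Summits at these pairs lay between the starts more often than the length of that stretch would give, although many lay inside one of the genes. For pairs whose genes do not overlap, 53.4% (46.8 to 60.002), 58.9% (48.4 to 68.9), 56.6% (49.6 to 63.4) and 53.1% (42.7 to 63.4) of the summits lay between the starts, a stretch that made up 15.1%, 16.1%, 14.8% and 16.8% of the windows. The median distance to the middle between the starts was 108, 106, 96.5 and 131 bp. At lone starts the summit lay upstream more often than inside the gene, with 37.3%, 36.2%, 40.2% and 35.1% inside, and the median position was 63, 73, 51 and 78 bp upstream (written as -63, -73, -51 and -78).

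**Figure D2:**
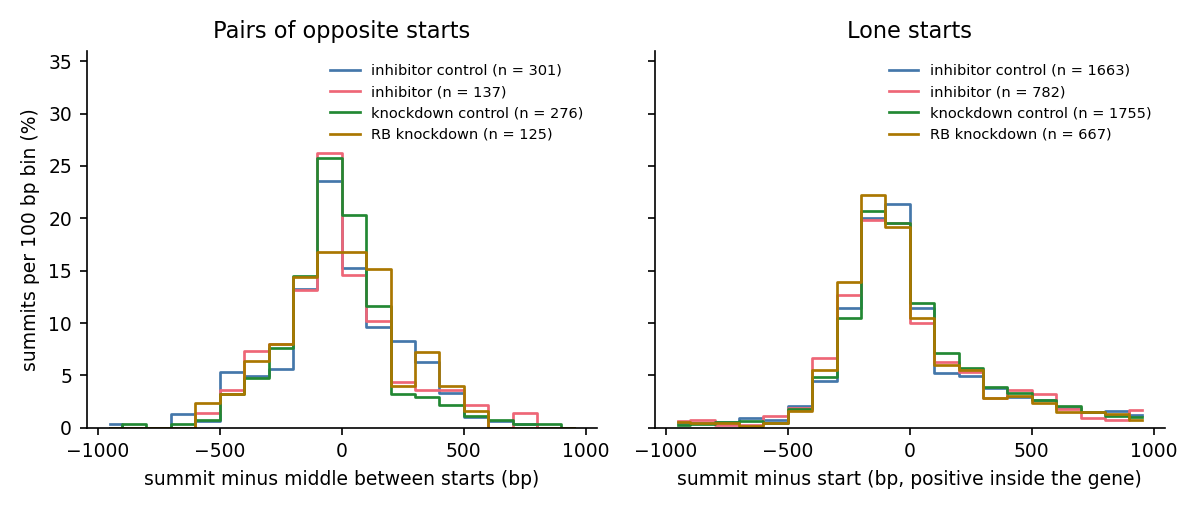
Left, summit position relative to the middle between starts on opposite strands; right, relative to a lone start with positive values inside the gene (x axes, bp). Lines give the share of summits per bin (y axis, %) in each library; the left profiles centre on the middle and the right ones peak upstream of the start.

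Levels at paired ends were higher than near 1 gene. The median was 6.91 FPM (6.51 to 7.73) in the inhibitor control, 10.5 (8.90 to 12.05) under the inhibitor, 4.60 (4.60 to 5.75) in the knockdown control and 7.84 (7.02 to 9.08) with RB knocked down. Near 1 gene it was 4.47 (4.47 to 4.88), 7.33 (6.81 to 7.86), 3.45 (3.16 to 3.45) and 7.02 (6.603 to 7.84), so the intervals overlapped with RB knocked down and in no other library. Summits near 1 gene include those at gene ends. With only starts compared, the medians at starts on opposite strands were 6.91, 9.43, 4.45 and 7.43 FPM, against 4.47, 7.86, 3.45 and 7.02 at 1 start. There the intervals overlapped both under the inhibitor and with RB knocked down. Away from gene ends the medians were 1.22, 2.09, 1.15 and 2.06 FPM. These medians rest on a typical member with 17, 20, 16 and 19 fragments, and the interval of a median treats summits as independent.

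Larger shares of members than of summits near 1 gene reached 5 FPM in each library, and 20 FPM in each except the RB knockdown, where the shares were equal. A level of at least 5 FPM was reached by 62.4%, 76.5%, 49.0% and 70.4% of members, against 45.3%, 65.9%, 33.9% and 62.8% of summits near 1 gene. At 20 FPM the shares were 14.5%, 24.4%, 6.43% and 16.3%, against 10.6%, 17.5%, 3.86% and 16.3%. The counting intervals at 5 FPM overlapped only with RB knocked down (63.7 to 76.6 against 59.5 to 66.1), while those at 20 FPM overlapped in every library. The highest summit near 1 gene exceeded the highest member in each library, with 386, 504, 197 and 280 FPM against 178, 204, 94.3 and 148. Paired ends made up 10.6%, 6.00%, 9.16% and 11.8% of gene-end summits under 2 FPM, 23.8%, 20.3%, 22.7% and 21.7% of those from 5 to 20 FPM, and 23.5%, 24.8%, 25.6% and 19.2% of those at 20 FPM or more.

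**Figure D3:**
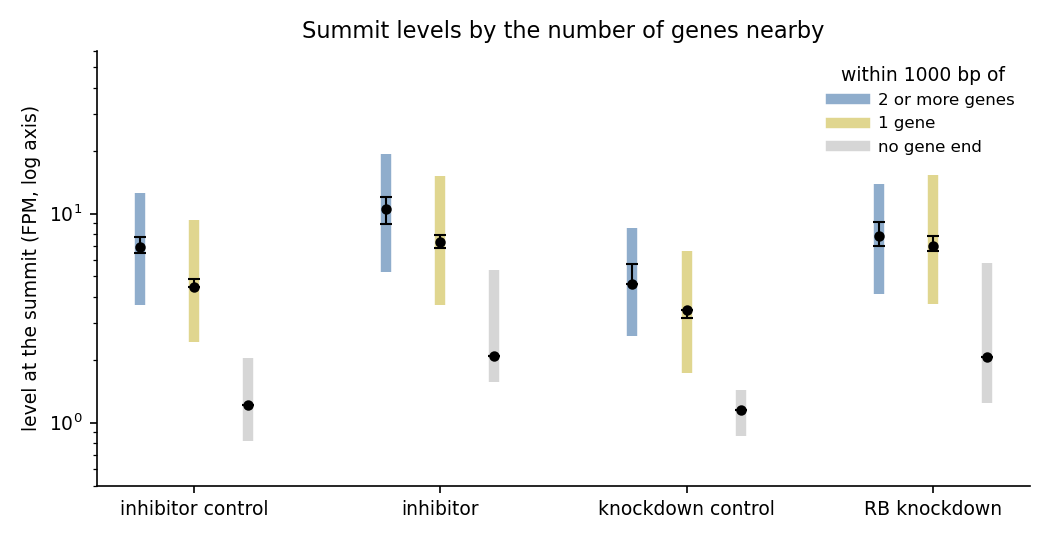
Level of summits at paired gene ends, near 1 gene and away from gene ends in the 4 libraries (y axis, FPM on a log axis). Dots are medians, whiskers their 95% order-statistic intervals, and coloured bars run from the lower to the upper quartile. Medians at paired ends are 6.91, 10.5, 4.60 and 7.84 FPM, above those near 1 gene in each library.

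Members close to the 1000 bp limit did not differ sharply from summits just beyond it. With the end of the second gene 800 to 1000 bp away, 39, 20, 37 and 18 members had medians of 9.35, 11.3, 6.32 and 10.9 FPM. With it 1000 to 1200 bp away, 34, 15, 31 and 8 summits had medians of 6.91, 9.95, 5.17 and 9.90 FPM.

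The members of all libraries fell at 817 different places next to 1538 genes. Of these places 456 had a summit in 1 library only, 188 in 2, 103 in 3 and 70 in all 4. An interval lists only its highest summit, and intervals with a member had a median width of 281, 866, 305 and 1091 kb. A lower summit in the same interval is therefore not listed, and absence from a list does not show absence of signal. At the 70 places in all 4 libraries the median level was 12.6, 14.9, 8.48 and 11.97 FPM. The inhibitor library was highest at 40 of them and the knockdown control lowest at 50, and the summits of a place lay within a median of 127.5 bp of each other. Lower levels in the knockdown control were not particular to paired ends. Over all summits matched between libraries, as described below, the median log2 ratio to it was 0.45 for the RB knockdown and 0.59 for the inhibitor control. Near 1 gene these ratios were 0.44 and 0.56.

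The highest place in every library was the end of KIF22, a kinesin gene of chromosome movement, beside the start of MAZ, a zinc finger transcription factor gene. It had 178, 204, 94.3 and 148 FPM, and in the inhibitor control it sits on a local background in an interval only 0.827 kb wide. BAP1, which encodes a nuclear deubiquitinase and tumour suppressor, and PHF7, a histone ubiquitin ligase gene, shared a summit of 168, 189, 81.6 and 125 FPM. The inhibitor library was highest and the knockdown control lowest at both places.

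KIFC1, a kinesin gene of spindle assembly, and PHF1, a Polycomb partner gene, had 134, 125, 59.2 and 103 FPM, and here the inhibitor control was highest. HSPD1 and HSPE1, head-to-head genes of the mitochondrial chaperonin and its co-chaperonin, shared with the readthrough gene HSPE1-MOB4 a summit of 72.0, 81.7, 42.8 and 71.8 FPM. At TMEM223 and TAF6L, the latter a gene of a histone acetyltransferase complex, the levels were 72.4, 76.5, 46.8 and 62.3 FPM. The knockdown control was again the lowest of the 4 at each.

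SF3B6, a spliceosome gene, FAM228B and the p53 target TP53I3 shared a summit of 55.7, 72.8, 37.1 and 43.3 FPM. IFT25 and LRRC42, the first a gene of intraflagellar transport, had 45.6, 60.8, 25.002 and 41.3 FPM with starts 45 bp apart. MBOAT7, a phospholipid remodelling enzyme gene, and TSEN34, a tRNA splicing endonuclease gene, had 52.1, 52.9, 27.0 and 32.6 FPM. A summit at HYAL3, NAA80 and HYAL1 reached 156 FPM in the inhibitor control, 90.5 in the knockdown control and 116 with RB knocked down but was not listed under the inhibitor, and one at FKBP2 was listed in the controls only, with 101 and 52.9 FPM.

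**Figure D4:**
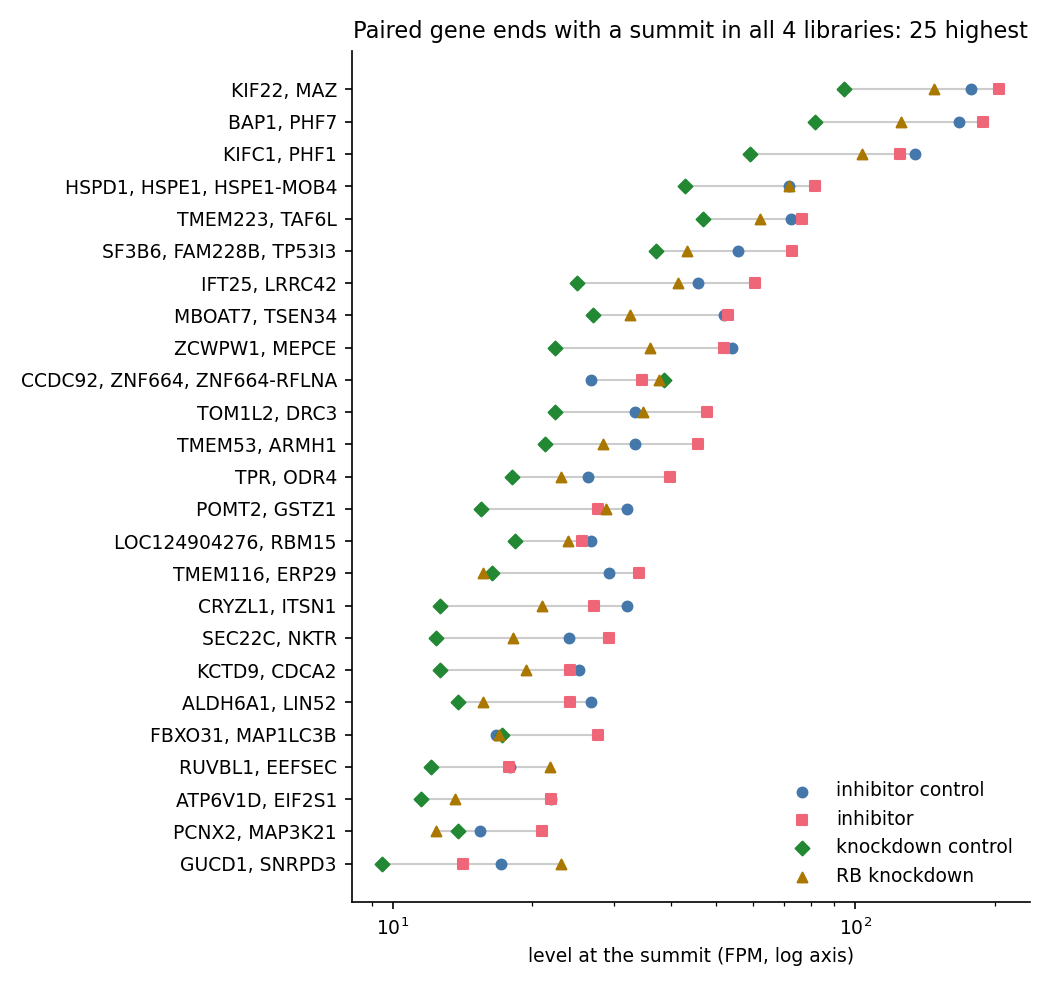
Level (x axis, FPM, log axis) at the 25 paired gene-end places with the highest geometric mean among those in all 4 libraries, one point per library. The knockdown control is the lowest point at each of the top 8 places and the highest at CCDC92/ZNF664, and KIF22/MAZ is the highest in every library.

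Genes of DNA replication with a gene-end summit were mostly at paired ends. Of the 41 replication genes listed as E2F targets, 10, 2, 7 and 3 had a gene-end summit and 7, 2, 6 and 2 of these lay at a paired end. Over all genes with a gene-end summit, 31.5%, 32.6%, 29.7% and 32.5% lay at paired ends. Of the 19970 protein-coding genes, 36.4% have an end of another gene within 2000 bp. That last share needs no summit and reaches farther, so it is not a like measure, and it was not counted for the gene lists themselves. With so few members, the counts are a description. ORC6, of the origin recognition complex, shared a summit with VPS35 of 20.7, 17.8, 7.47 and 16.1 FPM. MCM7, of the replicative helicase, and AP4M1 were listed in the controls only, at 23.2 FPM for the inhibitor control and 12.1 for that of the knockdown. PCNA, the sliding clamp, and CDS2 had 15.9 and 14.7 FPM in the inhibitor control and under the inhibitor.

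Of 62 replication-dependent histone genes, which code for the core histones made in S phase, 8, 4, 10 and 4 had a gene-end summit and 8, 4, 8 and 2 of these were at paired ends. H3C14 and H2AC18 shared a summit of 31.3, 28.3 and 17.2 FPM, not listed with RB knocked down. H2BC11 and H2AC11 had 18.3, 12.05, 12.6 and 13.6 FPM. Histone genes have near-identical copies, so fragments of one copy could be placed on another.

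Among 38 DNA repair genes, 12, 4, 17 and 4 had a gene-end summit, of which 5, 1, 8 and 2 at paired ends. The kinase gene ATM and NPAT, a regulator of histone genes, had 6.91, 7.47 and 7.43 FPM in the 3 libraries other than the inhibitor. XRCC1, a scaffold of single-strand break repair, and PINLYP were also listed in the controls only, at 11.4 and 3.16 FPM.

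Of 77 mitochondrial ribosome genes 13, 5, 12 and 1 had a gene-end summit, with 5, 4, 7 and 1 at paired ends, led by MRPL51 beside the condensin gene NCAPD2 at 17.9 FPM in the inhibitor control. For 28 p53 targets the counts were 3 of 15, 1 of 6, 4 of 14 and 2 of 6, and for 32 cyclin, CDK, RB and E2F genes 0 of 9, 2 of 2, 3 of 6 and 0 of 6. Of 31 proteasome genes 1 of 6, 1 of 2, 1 of 5 and 0 of 0 lay at paired ends. E2F3, an activating E2F gene, had 5.76 FPM under the inhibitor and 5.46 in the knockdown control.

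Of 38 genes listed as known pairs, 8, 2, 12 and 8 had a gene-end summit, 7, 2, 10 and 7 of them at a paired end. The list was made of genes known to lie beside a partner, so a high share at paired ends follows largely from that choice. Apart from HSPD1 with HSPE1 and ATM with NPAT, COL4A3 and COL4A4, collagen genes of basement membrane, had a low summit of 2.44, 2.30 and 2.48 FPM in the 3 libraries other than the inhibitor. MRPL49, listed as a pair with SNX15, was at a paired end through another neighbour, FAU. That summit had 9.76 FPM in the inhibitor control and 6.603 with RB knocked down. POLR2I, an RNA polymerase subunit gene, and TBCB had 10.3 FPM in the knockdown control, where PRKDC and MCM4 had 2.01.

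Cell type markers were nearly absent from gene-end summits. Of 10 luminal prostate markers 1 had a gene-end summit in each library. FOXA1, a pioneer factor gene, lay beside TTC6 with 3.67 FPM under the inhibitor, 3.16 in the knockdown control and 6.19 with RB knocked down. None of 9 blood, endothelial and liver markers had a gene-end summit in any library. These lists hold only the highest summit of wide intervals, so they check the labelled cell type only weakly.

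The letters in the shared promoters differed from those at other promoters. Of 898 promoters at starts on opposite strands with a summit in any library, 46.1% held a CCAAT box (42.8 to 49.4). The share was 34.8% (31.8 to 37.9) of 956 promoters of annotated opposite-strand pairs with no listed summit. It was 40.8% (39.0 to 42.6) of 2875 lone starts with a summit and 36.3% of all 15811 promoters. All are windows of the same 300 bases, searched on both strands. A GC box (GGGCGG) was held by 72.9% (69.9 to 75.8), 63.8% (60.7 to 66.9), 77.3% (75.7 to 78.8) and 58.5%. Both starts of a pair are counted and their windows can overlap, so one box can be counted in both promoters. The promoters of pairs are therefore not independent, and their intervals are too narrow. The 956 promoters come from the 920 annotated pairs, which were limited in start distance and in nearby genes. The 898 come from members, which had no such limits. The lone starts with a summit may likewise include starts outside the lone starts counted from the annotation. The part of these different rules in the motif shares was not tested.

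ETS cores were about as common at pairs with a summit as at pairs without one, and the longer ETS motif was less common with a summit. The core CGGAAG was held by 42.1% (38.8 to 45.4) of pair promoters with a summit and 41.7% (38.6 to 44.9) without, against 30.1% (28.4 to 31.8) at lone starts with a summit and 25.6% (24.9 to 26.2) of all. The longer ETS motif CCGGAAGT, which contains the core, was held by 10.8% (8.85 to 13.0) with a summit and 15.7% (13.4 to 18.2) without, and 7.17% at lone starts. E2F motifs (TTTCGCGC, TTTGGCGC or TTTCCCGC) were held by 8.24% (6.53 to 10.2), 6.28% (4.82 to 8.01), 4.52% (3.79 to 5.35) and 3.78%. Those of the pairs with and without a summit overlapped in their intervals.

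The YY1 motif AAGATGGC had 6.68%, 7.43%, 4.94% and 3.91%, the NRF1 motif 2.78%, 3.24%, 2.40% and 1.76%, and the CRE motif TGACGTCA 3.56%, 2.72%, 3.93% and 2.59%. The AP-1 motif TGANTCA had 2.78%, 4.39%, 2.99% and 5.76%, and the TATA box TATAAA 4.45%, 4.29%, 5.04% and 9.64%. Median GC content was 64.0%, 64.0%, 67.0% and 62.7%, with 26, 25, 28 and 22 CpG. Base composition therefore differed between the groups of promoters, and its part in the motif shares was not tested. Of members at starts on opposite strands, 70.4%, 64.6%, 72.7% and 63.6% had their summit inside the searched window of one of the genes.

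At paired ends, levels under the inhibitor were close to those of its control. Summits of the libraries were matched as mutual nearest within 250 bp and kept where the geometric mean of their levels reached 5 FPM. A matched summit counted as paired when either library placed it at a paired end, and it was called when the 95% interval of the ratio excluded the median shift of all matched summits. Over all 886 matched summits 16.8% were called, 9.14% above and 7.67% below a shift of 0.20 on the log2 scale. Of 130 at paired ends 15 were called, 11.5% (6.604 to 18.3), with 4 above and 11 below, and of 447 near 1 gene 52, 11.6% (8.81 to 14.97), with 34 above and 18 below. The median log2 ratio was 0.13 (0.02 to 0.20) at paired ends and 0.19 (0.16 to 0.26) near 1 gene. These calls compare 1 library with 1 library. Some 95% intervals exclude the shift through counting error alone, so a call at a single place is weak.

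Above the shift lay HNRNPK, an RNA-binding protein gene, with RMI1, of the complex that dissolves recombination intermediates, at 12.6 FPM under the inhibitor and 4.47 in the control (log2 ratio 1.49, 0.41 to 2.67). PLA2G12A, a phospholipase gene, beside CFI had 16.2 against 6.51 FPM (1.32, 0.40 to 2.29). PIP4K2B, a phosphoinositide kinase gene, beside CWC25, of the spliceosome, had 20.9 against 9.35 FPM (1.16, 0.39 to 1.97). CERT1, which moves ceramide between membranes, and POLK, a translesion polymerase gene, had 30.4 against 14.6 FPM (1.05, 0.43 to 1.69). The genes overlap, and their outermost starts lie 1207 bp apart, 316 and 891 bp from the inhibitor summit. The printed CERT1 promoter surrounds a different start of that gene, nearer to the summit. The CERT1 summits lay at base 233 and 215 of the printed promoter in the control and under the inhibitor, before the YY1 motif at base 270.

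Below the shift lay FAM227B with DTWD1, a tRNA modification gene, at 3.67 FPM under the inhibitor and 9.76 in the control (log2 ratio -1.41, -2.87 to -0.15). IRS2, an adaptor of insulin signalling, beside LOC124903211 had 5.24 against 10.98 FPM (-1.07, -2.28 to 0.02). DRC10 and TPCN1, a two-pore channel gene, had 9.43 against 17.1 FPM (-0.86, -1.74 to -0.03), at base 81 and 48 of the printed TPCN1 promoter. The histone pair H2BC11 and H2AC11 had 12.05 against 18.3 FPM (-0.60, -1.40 to 0.15), the same counts as FGD6 with VEZT, and SRSF2, a splicing factor gene, beside MFSD11 16.8 against 25.2 FPM (-0.59, -1.25 to 0.05).

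Of the 11 below the shift, FAM227B/DTWD1 and DRC10/TPCN1 also lay below a ratio of 1 beyond counting error, and the other 9 did not. Those others included PSENEN, a gamma-secretase subunit gene, beside U2AF1L4 at 30.4 against 40.7 FPM (-0.42, -0.91 to 0.06), with summits at base 78 and 64 of the printed promoter. SRGAP2B beside FAM72D (31.9 against 39.5 FPM) has near-identical copies elsewhere in the genome, so its counts are uncertain.

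**Figure D5:**
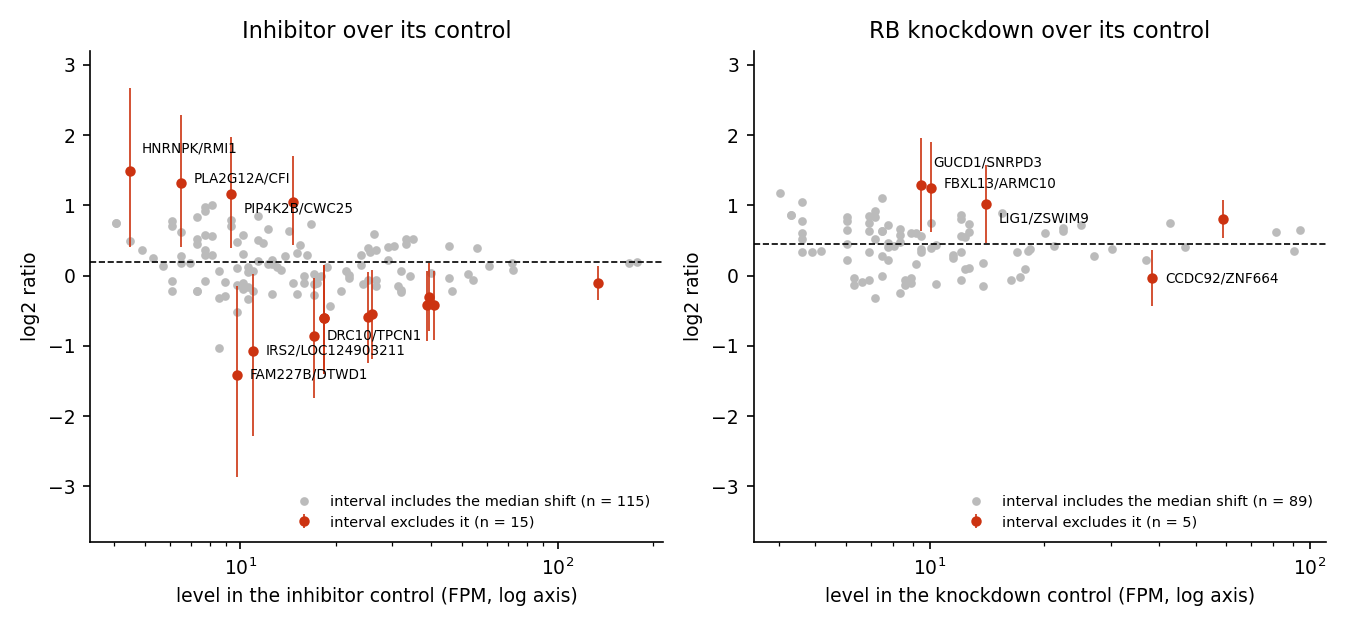
Log2 ratio of treated over control library (y axis) against the control level (x axis, FPM, log axis) for matched summits at paired gene ends; left the inhibitor, right the RB knockdown. Red points with 95% counting intervals were called, 15 of 130 and 5 of 94, and the dashed line is the median shift of all matched summits.

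With RB knocked down, the ratios at paired ends centred on the shift of all matched summits. Over all 749 matched summits 13.4% were called, 7.61% above and 5.74% below a shift of 0.45. Of 94 at paired ends 5 were called, 5.32% (1.75 to 11.98), with 4 above and 1 below. Of 378 near 1 gene 34 were called, 8.99% (6.31 to 12.3), with 16 above and 18 below. How many of the 5 calls at paired ends arose from counting error alone was not tested. The median log2 ratio was 0.45 (0.35 to 0.60) at paired ends and 0.44 (0.38 to 0.47) near 1 gene. More FPM with RB knocked down were found at 77 of the 94, at 320 of the 378 near 1 gene and at 636 of all 749.

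The 4 above were GUCD1 with SNRPD3, a spliceosome core gene, at 23.1 against 9.48 FPM (log2 ratio 1.28, 0.64 to 1.95), FBXL13 with ARMC10 at 23.9 against 10.1 FPM (1.25, 0.62 to 1.90), LIG1, the replicative DNA ligase, with ZSWIM9 at 28.5 against 14.1 FPM (1.02, 0.47 to 1.57), and KIFC1 with PHF1 at 103 against 59.2 FPM (0.80, 0.53 to 1.07). The 1 below was CCDC92 with ZNF664 and ZNF664-RFLNA, at 37.6 against 38.5 FPM (-0.04, -0.44 to 0.36). ORC6 with VPS35 had 16.1 against 7.47 FPM and lay within counting error of the shift.

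The 2 controls, which the treated comparisons also use, differed from each other as well. Over all 1191 matched summits 20.3% were called, 11.9% above and 8.40% below a shift of 0.59, and at paired ends 16 of 182, 8.79% (5.11 to 13.9), with 10 above and 6 below. Near 1 gene 88 of 576 were called, 15.3% (12.4 to 18.5), with 43 above and 45 below. KIFC1 with PHF1 had 134 and 59.2 FPM in the controls of the inhibitor and the knockdown (1.18, 0.93 to 1.44), and ORC6 with VPS35 20.7 and 7.47 (1.47, 0.76 to 2.21). HNRNPK with RMI1 was lower in the inhibitor control, at 4.47 against 7.47 FPM (-0.74, -1.905 to 0.33), and CCDC92 with ZNF664 also, at 26.8 against 38.5 FPM (-0.52, -0.97 to -0.09). All 4 thus differed between controls relative to the shift and are also named above for a treated library or for a place of high level.

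The spread of the ratios at paired ends was no wider than near 1 gene. The log2 ratios had a standard deviation of 0.46 against 0.49 for the inhibitor, 0.36 against 0.43 for the RB knockdown and 0.42 against 0.50 between the controls. Over all matched summits it was 0.52, 0.42 and 0.55.

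Most members without a partner in the treated library could not be read there. Of 311 members of the inhibitor control with at 5 FPM or more, a partner was found under the inhibitor for 125 (40.2%, 34.7 to 45.9), and 163 lay in an inhibitor interval with a summit as high or higher, which would hide them. For 17 the treated interval had a lower summit, and 6 lay in a gap. Of 236 members of the knockdown control 84 had a partner with RB knocked down (35.6%, 29.5 to 42.1), 149 were hidden, 2 lay under a lower summit and 1 in a gap. Near 1 gene the shares with a partner were 41.6% (38.5 to 44.7) of 1002 and 45.4% (41.9 to 48.9) of 789. In the other direction 129 of 182 inhibitor members and 102 of 143 knockdown members had a partner in their control.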

How the data were processed

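The authors deposited 1 list of called intervals per library, of 10 columns for the inhibitor and its control and 9 for the knockdown and its control. Per the submitters' processing notes, bcl2fastq 2.17, Trimmomatic 0.33, Bowtie2 (version given as 2), MACS2 2.1.0 and the hg38 build were used. Their order and settings and the background library are not given in the sources used here. Judged by their number and values, the deposited columns were read as a score, the fold enrichment ratio at the summit, the −log10 p and the −log10 q. The score was not used.

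The deposited fold and −log10 p of each summit were solved for its treatment fragments, with a pseudocount of 1 and a genome of 2.7 Gb. Treatment fragments totalled 2458774 for the inhibitor control, 1909343 for the inhibitor, 3479671 for the knockdown control and 2423283 for the knockdown, and 1 fragment is 0.407, 0.524, 0.287 and 0.413 FPM. Recovered numbers were whole within 0.05 for 100% of solved summits, and 99.99% or more were solved in each list. Gene positions and promoters came from RefSeq, and strand was known for 15811 of 19970 genes. Shares have exact binomial (Clopper-Pearson) intervals and medians order-statistic intervals, at the 95% level. Ratios have exact conditional intervals, with no test between conditions.

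Named genes were the 8 highest places in all 4 libraries, the 4 highest per library, up to 6 called places per direction furthest from the shift, and members of the gene lists. Members and lists were chosen with earlier results of these data known. Occupancy of the annotation, orientation, motifs and the promoters shown were added after values were seen. Alternatives covered window, threshold, level, matching distance and overlapping genes. Python 3.11.15, pandas 2.3.3 and scipy 1.17.1 were used, and the procedures were tested on simulated lists.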

Additional observations from a re-analysis of the deposited data

Results flagged for a closer look

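The summit at KIFC1 and PHF1 lay on opposite sides of the median shift in the 2 treated libraries. Its log2 ratio was -0.11 under the inhibitor (124.65 against 134 FPM), below the shift of 0.20, and 0.80 with RB knocked down (103 against 59.2 FPM), above the shift of 0.45. The difference between these ratios was not tested beyond their counting intervals. Between the controls the log2 ratio at this place was 1.18, against a shift of 0.59.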

How the results depend on the processing

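No paired analysis was possible because each group held 1 library, and leaving out a replicate was impossible for the same reason. The share of gene-end summits at paired ends (inhibitor control, inhibitor, knockdown control, RB knockdown) was 15.1%, 15.4%, 14.6% and 16.2% with a window of 500 bp, and 22.4%, 22.6%, 20.3% and 22.8% with 2500 bp, where paired windows made up 5.71% and 12.6% of the window length. It was 13.6%, 13.1%, 12.9% and 14.02% when gene bodies could not overlap, and 23.7%, 21.6% and 23.02% in the first 3 libraries at 5 FPM or more. At a −log10 q of at least 2 it was 21.2%, 0, 23.5% and 0, on 52, 4, 17 and 2 summits, so the treated lists gave no median level there. The median level was then 74.4 FPM for the inhibitor control and 86.1 FPM for the knockdown control. The share of pairs of opposite starts with a summit, divided by that of lone starts, was 2.21, 2.14, 1.92 and 2.29. At 5 FPM or more, an alternative chosen after seeing the data, it was 2.88 in the inhibitor control and 2.42 in the knockdown control. The share of matched paired summits beyond counting error ranged over its alternatives from 8.51% to 15.9% for the inhibitor, 4.76% to 10.5% for RB knockdown and 8.68% to 12.5% between the controls. In all, 23 alternative values moved beyond the counting interval and 48 did not. Depth limits single summits: a typical member rests on 16 to 20 fragments.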
